A study of Mus musculus with 8 samples.

Results

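The 10 genes described here encode the MHC class II presentation machinery of the mouse: the chains H2-Aa, H2-Ab1 and H2-Eb1, the invariant chain Cd74, the peptide loading factors H2-DMa, H2-DMb1, H2-DMb2, H2-Oa and H2-Ob, and the transactivator Ciita. They were chosen by symbol, each matched 1 row of the deposited count table, and they make up 10 of its 52325 genes. All 10 passed the filter on low counts that left 18174 genes for testing. The measurements are RNA-seq libraries of endometrium, the inner lining of the uterus, cut by laser from frozen sections of 4 WT and 4 Thra1PV/+ female mice. The Thra1PV/+ mice carry, in 1 germline allele of Thra, the PV mutation, which turns the thyroid hormone receptor TRα1 into a dominant negative form, and no other allele or agent is named for either genotype. Both genotypes were synchronised at metestrus. The ages and the strain of these mice are not given in the sources used here. The comparison addresses how endometrial transcripts of the mutant differ from those of WT mice at the same phase of the cycle.

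MHC class II molecules present peptides from endosomes to CD4+ T cells. An alpha and a beta chain assemble on the invariant chain, which guides them to endosomes and blocks the groove until proteases trim it to a fragment. The DM heterodimer then exchanges that fragment for a peptide, and the O heterodimer restrains DM. Dendritic cells, B cells and many macrophages express this set constitutively, and interferon gamma can switch it on in other cells, epithelium included, through the coactivator encoded by Ciita. Class II promoters share an X box, bound by the RFX complex, and a Y box, bound by NF-Y, on which the Ciita protein docks.

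That shared promoter layout is shown as background, and its part in how the genes varied across the libraries was not tested. RefSeq promoter windows (GRCm38.p6, 250 bases before the start to 50 after it) were matched for 7 of the 10 genes, all but H2-Ab1, Cd74 and Ciita. A search on both strands looked for GNAAC, a part of the X box, followed after 15 to 45 bases by ATTGG, the Y box. It found the pair in 5 of these 7 genes and in 4.93% of all 32851 windows. The stretches of 4 genes, written 5′ to 3′ on the strand of the gene with GNAAC and ATTGG in capitals, read as follows.
H2-Aa, chr17:34287859-34287916, minus strand: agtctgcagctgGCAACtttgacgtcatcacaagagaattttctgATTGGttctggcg
H2-Eb1, chr17:34305764-34305820, plus strand: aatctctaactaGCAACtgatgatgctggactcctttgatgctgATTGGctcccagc
H2-Ob, chr17:34238806-34238860, plus strand: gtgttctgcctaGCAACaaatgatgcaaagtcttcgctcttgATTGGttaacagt
H2-Oa, chr17:34092291-34092348, plus strand: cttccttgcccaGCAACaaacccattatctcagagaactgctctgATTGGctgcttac
The 2 pieces in capitals were 28 bases apart in H2-Aa and H2-Oa, 27 in H2-Eb1 and 25 in H2-Ob. The Y box ended 43, 38, 54 and 52 bases before the RefSeq start of the window, in that order. The GENCODE gene positions given below come from another annotation, and their starts can differ, as for H2-Oa. H2-DMb1, the other gene with the pair, also had 28 bases between them. The letters GNAAC were chosen after the sequences had been read. With the longer GNAACNG, 2 of the 7 genes matched, H2-DMb1 and H2-Eb1, against 1.48% of all windows. CCAAT, which is ATTGG read on the other strand, stood in 7 of 7 genes and 37.4% of all windows, and AACNGNTG, which overlaps GNAACNG, in 3 of 7 and 10.5%. H2-DMa and H2-DMb2 held the Y box without the pair. These matches describe letters in a window only.

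Library totals ran from 48791602 to 59818887 counts, so depth differed by far less than the class II genes did. Thra itself was at a similar level in both genotypes (log2 fold change 0.04, SE 0.39, adjusted p = 0.987 by edgeR's quasi-likelihood test), and since PV alters the end of the reading frame its level does not check the labels. Simple epithelium markers summed to between 1786 and 4992 CPM (counts scaled to library size, in the usual CPM unit, after TMM normalisation) and endometrial stroma markers to between 378 and 2759 CPM, so both tissue types that make up endometrium were present in all 8 libraries. All 6 squamous epithelium markers were called higher in Thra1PV/+ libraries, where they summed to between 2382 and 3852 CPM against 1.66 to 36.05 CPM in WT libraries. The libraries were uneven in other cell types too: WT library 1 held 12640 CPM of smooth muscle markers, where the other WT libraries held 528.5 to 1094 CPM and the Thra1PV/+ libraries 125 to 638 CPM, and Thra1PV/+ library 2 held 722 CPM of neutrophil markers, the highest of the 8. All 6 smooth muscle markers were lower in mean in Thra1PV/+ libraries with an unadjusted edgeR p-value under 0.05, beside 9.77% of tested genes (median log2 fold change -4.31). All 7 stroma markers were lower in mean too (median -0.89, 1 of them with such a p-value). EdgeR called none of either list. DESeq2 called the stroma proteoglycan gene Dcn (log2 fold change -2.22, adjusted p = 0.0459). It gave no p-value for the smooth muscle markers Myh11, Acta2, Cnn1, Actg2 and Tagln. The part of this difference in tissue make-up in the class II levels was not tested.

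All 10 class II genes had higher mean levels in Thra1PV/+ than in WT endometrium, but the libraries of the genotypes overlapped for each gene and none was called. The log2 fold changes ran from 0.38 for H2-Ob to 0.98 for H2-Oa, with a median of 0.58, where the median over all 18174 tested genes was -0.05. By edgeR's quasi-likelihood test with Benjamini-Hochberg adjustment and calls that needed both a 2-fold difference and an adjusted p-value no higher than 0.1, 0 of the 10 genes were called, beside 0.99% of all tested genes. The CPM ranges of the genotypes were apart for 0 of the 10 genes, beside 6.04% of tested genes. At an unadjusted p-value under 0.05 the count was again 0 of 10, beside 9.77% of tested genes. DESeq2, with the same thresholds, also called 0 of the 10, beside 3.64% of the genes it gave an adjusted p-value for, and its lowest unadjusted p-value was 0.0497, for Cd74 (adjusted p = 0.42). All 10 fold changes were positive, beside 43.2% of tested genes, but most of the genes moved together from library to library. The 10 genes are thus not independent observations. In a bulk library, more cells that carry class II and more class II RNA per cell cannot be told apart.

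**Figure D1:**
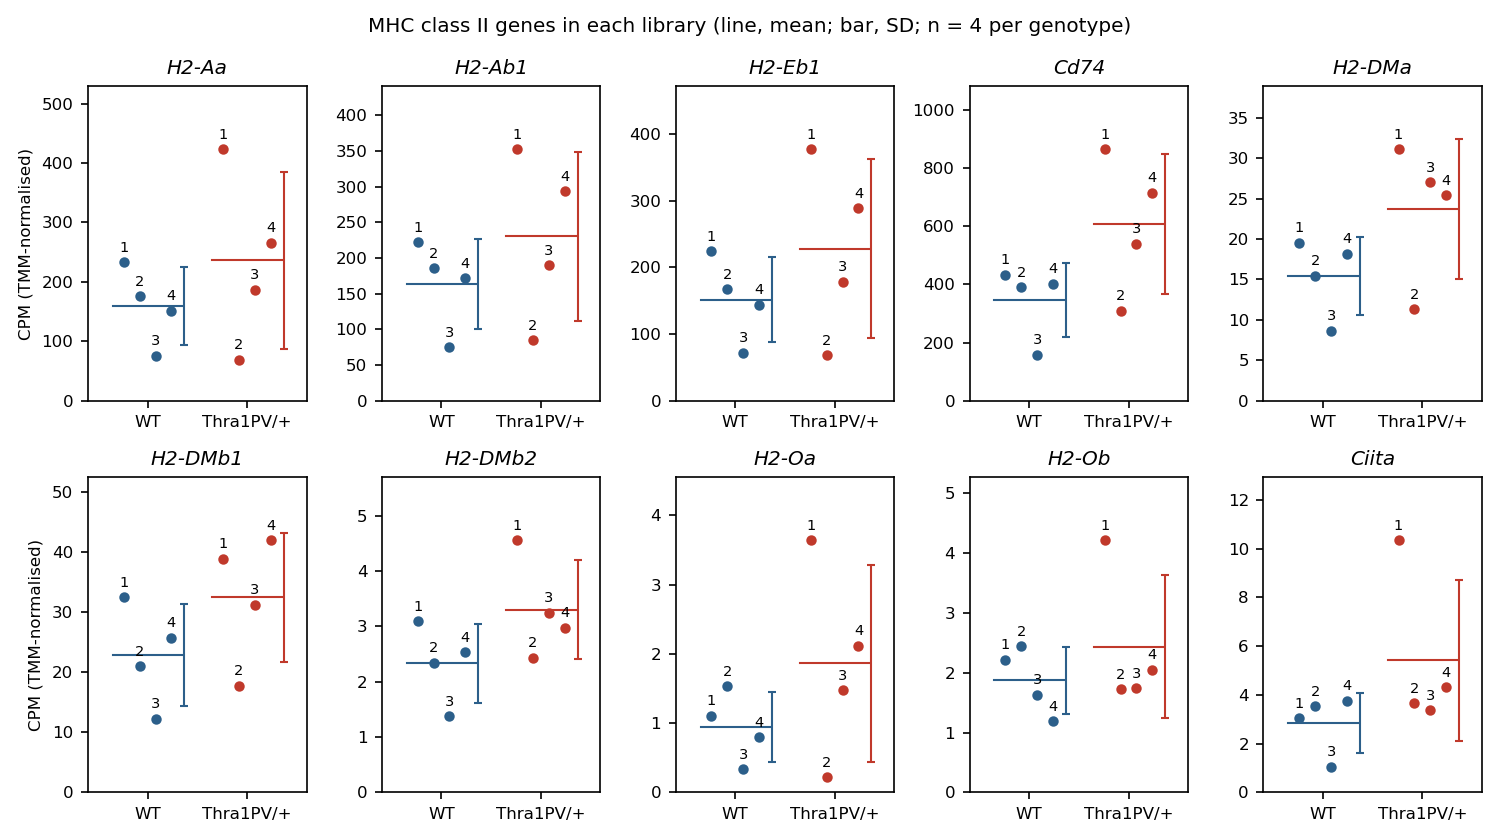
Each panel plots 1 gene, with CPM on the y axis from 0 and the 2 genotypes on the x axis; points are libraries with their replicate number, lines are means and bars are SDs (n = 4 per genotype). The genotypes overlap in all 10 panels, Thra1PV/+ library 2 and WT library 3 are low in most of them, and Thra1PV/+ library 1 is the highest point in 9.

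The 3 classical chain genes lay side by side on chromosome 17 and behaved alike. H2-Aa, the alpha chain of I-A (chromosome 17, 34282744 to 34287823, minus strand; GRCm38, GENCODE M21, as for all positions), stood at 424, 69.0, 187 and 266 CPM in Thra1PV/+ libraries 1 to 4 and at 234, 176, 75.8 and 152 CPM in WT libraries 1 to 4. Thra1PV/+ libraries 1 and 4 were above the highest WT library, and Thra1PV/+ library 2 was below the lowest one. The means were 236 ± 149 and 159 ± 65.3 CPM (SD, n = 4 each). The log2 fold change was 0.57 (SE 0.53, 95% interval -0.64 to 1.78, edgeR adjusted p = 0.793), an interval that reached from 0.642 to 3.43 times the WT level.

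H2-Ab1, the I-A beta chain (34257689 to 34269419, plus strand), stood at 352.5, 85.0, 190.2 and 294 CPM in Thra1PV/+ libraries 1 to 4 and at 222, 186, 75.3 and 171 CPM in WT libraries 1 to 4. Its libraries took nearly the same order as those of H2-Aa, except that Thra1PV/+ library 2 lay just above WT library 3. On the log2 scale the difference was 0.49 (SE 0.46, edgeR adjusted p = 0.796).

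H2-Eb1, the I-E beta chain (34305867 to 34316674, plus strand), stood at 377, 68.4, 178 and 288.5 CPM in Thra1PV/+ libraries 1 to 4 and at 224, 167, 71.9 and 144 CPM in WT libraries 1 to 4. Again Thra1PV/+ libraries 1 and 4 exceeded every WT library while library 2 lay below all of them. Its log2 fold change was 0.59 (SE 0.52, edgeR adjusted p = 0.779). Its partner, the I-E alpha chain, is annotated as a polymorphic pseudogene (H2-Ea-ps) and had 0 counts in all 8 libraries, which allows up to 3 counts in each. H2-Eb2, a further beta chain gene downstream of H2-Eb1, was near the floor at 0.0199 to 0.515 CPM. Class II chains differ in sequence between strains, reads were assigned with the mm10 reference, and the fit of these mice to it was not tested.

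For the chains, single libraries decided the size of the difference. Without Thra1PV/+ library 1 the log2 fold change of H2-Aa was 0.17, and without Thra1PV/+ library 2 it was 0.87 (edgeR adjusted p = 0.76). Without WT library 3 it was 0.35 and without WT library 1 it was 0.85. H2-Ab1 ran from 0.25 without Thra1PV/+ library 1 to 0.77 without Thra1PV/+ library 2, and H2-Eb1 from 0.27 to 0.89 over the same pair of omissions.

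Cd74, the invariant chain (chromosome 18), had the lowest p-value of the 10 genes. It stood at 865, 309, 539.7 and 715.5 CPM in Thra1PV/+ libraries 1 to 4 and at 434, 391, 158 and 402 CPM in WT libraries 1 to 4. The levels of 3 Thra1PV/+ libraries exceeded every WT library, and the remaining one, library 2, lay below 3 of the 4 WT libraries. The means were 607 ± 239 and 346 ± 127 CPM (SD, n = 4 each). The fold change was 1.75, or 0.81 on the log2 scale (SE 0.39, 95% interval -0.09 to 1.71, edgeR unadjusted p = 0.0715, adjusted p = 0.565), and it ran from 0.58 without WT library 3 to 1.03 without Thra1PV/+ library 2 (adjusted p = 0.57).

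The invariant chain also varied relative to the chains it escorts. On the TPM scale, which is per transcript length, Cd74 amounted to 0.653, 0.989, 0.686 and 0.599 of the summed H2-Aa, H2-Ab1 and H2-Eb1 level in Thra1PV/+ libraries 1 to 4 and to 0.457, 0.533, 0.495 and 0.621 in WT libraries 1 to 4. The ratios of 3 Thra1PV/+ libraries lay above every WT library, and library 4 lay below WT library 4. The means were 0.732 ± 0.175 and 0.526 ± 0.0702 (SD, n = 4 each), and the highest ratio belonged to Thra1PV/+ library 2, while WT library 3, whose chains were about as low, was at 0.495. The ratio was formed after the values had been seen and was not tested. The authors' TPM values are nearly equal at each rank across libraries, so their ratios need not be those of plain per-length levels. By contrast, H2-Aa to H2-Ab1 stayed between 0.863 and 1.31 in all 8 libraries, with means of 1.05 ± 0.194 in Thra1PV/+ and 1.06 ± 0.0537 in WT libraries.

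Among the loading factors, the DM genes were the better measured. H2-DMa, the DM alpha chain (34119541 to 34139101, plus strand), stood at 31.1, 11.3, 27.05 and 25.4 CPM in Thra1PV/+ libraries 1 to 4 and at 19.6, 15.5, 8.67 and 18.2 CPM in WT libraries 1 to 4. As for Cd74, 3 Thra1PV/+ libraries exceeded every WT library and library 2 did not. The means were 23.7 ± 8.61 and 15.5 ± 4.84 CPM (SD, n = 4 each), and the log2 fold change was 0.62 (SE 0.35, 95% interval -0.19 to 1.43, edgeR adjusted p = 0.638). The annotation places Brd2 on the opposite strand over part of H2-DMa. The kit marks strand, and the strand setting of the counting is not given in the sources used here.

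H2-DMb1 and H2-DMb2 are neighbouring copies that both encode a DM beta chain, and their counts are uncertain because 31.4% of the 31-base words in H2-DMb1 transcripts also occur in H2-DMb2 and 36.4% of those in H2-DMb2 transcripts occur elsewhere, most often in H2-DMb1. H2-DMb1 (34153072 to 34160230, plus strand) stood at 38.9, 17.7, 31.2 and 41.9 CPM in Thra1PV/+ libraries 1 to 4 and at 32.5, 21.0, 12.2 and 25.7 CPM in WT libraries 1 to 4. H2-DMb2 (34143307 to 34151555, plus strand) stood at 4.55, 2.435, 3.25 and 2.98 CPM and at 3.09, 2.35, 1.37 and 2.53 CPM in the same order. Both genes overlapped between genotypes, with 2 Thra1PV/+ libraries above every WT library. The log2 fold changes were 0.51 for H2-DMb1 (SE 0.35, edgeR adjusted p = 0.701) and 0.50 for H2-DMb2 (SE 0.34, edgeR adjusted p = 0.696).

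The O genes, whose products restrain DM and are best known from B cells and thymus, were low. H2-Oa, the O alpha chain (34092340 to 34095234, plus strand), had 198, 11, 72 and 121 counts in Thra1PV/+ libraries 1 to 4 and 58, 85, 17 and 38 counts in WT libraries 1 to 4. It had the widest range of the 10 genes, from 0.223 CPM in Thra1PV/+ library 2 to 3.64 CPM in Thra1PV/+ library 1, and both ends belonged to the same genotype. Its log2 fold change, the highest of the set at 0.98, therefore had the widest error (SE 0.76, 95% interval -0.77 to 2.73, edgeR adjusted p = 0.746), and without Thra1PV/+ library 1 it was 0.47.

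H2-Ob, the O beta chain (34238903 to 34254414, plus strand), had 229, 85, 85 and 117 counts in Thra1PV/+ libraries 1 to 4 and 116, 135, 82 and 57 counts in WT libraries 1 to 4. Only Thra1PV/+ library 1 exceeded the WT libraries, and the other 3 mutant libraries lay inside the WT range. On the log2 scale the difference was 0.38 (SE 0.41, edgeR adjusted p = 0.833), and without Thra1PV/+ library 1 it was 0.02.

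Ciita, the coactivator on which class II transcription depends (chromosome 16, 10480059 to 10528418, plus strand), had 563, 181, 165 and 247 counts in Thra1PV/+ libraries 1 to 4 and 160, 196, 53 and 180 counts in WT libraries 1 to 4. In CPM these were 10.3, 3.67, 3.37 and 4.325 against 3.05, 3.54, 1.05 and 3.77. Thra1PV/+ library 1 stood well above the other 7, WT library 3 was lowest, and the remaining 6 lay between 3.05 and 4.325 CPM with the genotypes mixed. The log2 fold change was 0.93 (SE 0.51, 95% interval -0.25 to 2.10, edgeR adjusted p = 0.622), and it ran from 0.46 without Thra1PV/+ library 1 to 1.10 without Thra1PV/+ library 3. Unlike the other 9 genes, Ciita was not lowest in Thra1PV/+ library 2 among the mutant libraries.

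**Figure D2:**
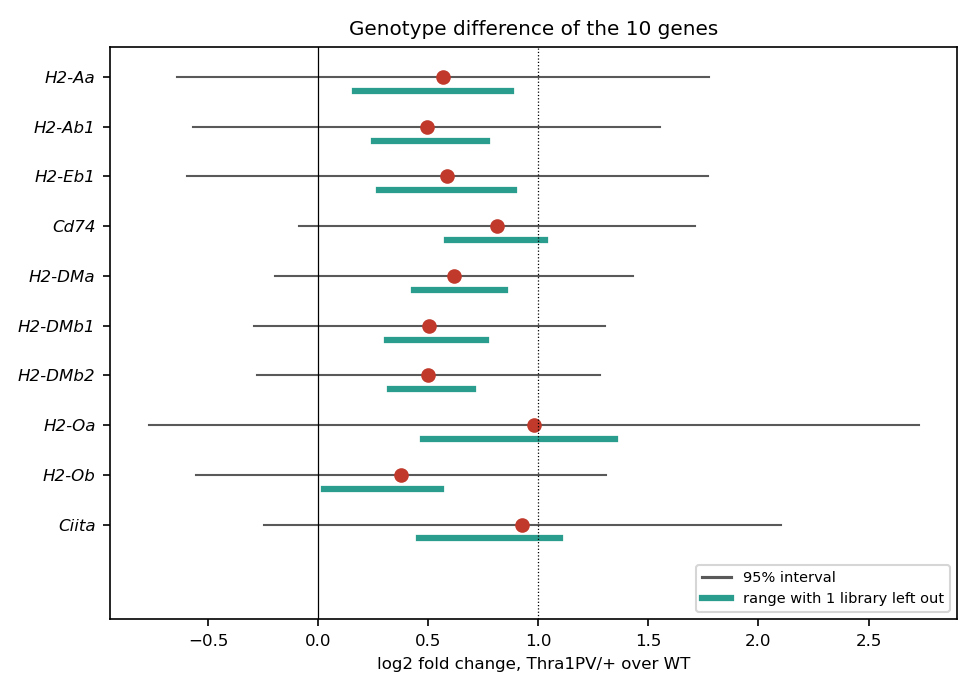
Points give the log2 fold change (x axis, Thra1PV/+ over WT) of each gene (y axis), grey lines its 95% interval and green bars the range when each of the 8 libraries is left out in turn; the dotted line marks a fold change of 2. All 10 intervals include 0, and no green bar crosses it, although that of H2-Ob comes to 0.02.

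Per transcript length, the set spanned 3 tiers. In the authors' TPM values, medians over the 8 libraries were 409.5 for Cd74, 266 for H2-Aa, 254.9 for H2-Ab1 and 198 for H2-Eb1. The DM genes followed at 25.9 for H2-DMb1 and 16.8 for H2-DMa, and the lowest tier held H2-DMb2 at 3.075, H2-Oa at 1.67, H2-Ob at 1.17 and Ciita at 0.793. Cd74 was above H2-Aa in 8 of 8 libraries, H2-Eb1 above H2-DMb1 by at least 4.40 times in each, and H2-DMa above H2-DMb2 by at least 3.82 times. The limit on TPM ratios given for Cd74 holds here too. Neighbours within a tier were not always in this order: H2-Aa exceeded H2-Ab1 in 6 of 8 libraries, H2-Oa exceeded H2-Ob in 6 of 8, and H2-Ab1 over H2-Eb1, H2-DMb2 over H2-Oa and H2-Ob over Ciita each held in 7 of 8. Counts of the 10 genes made up 0.0554% to 0.236% of a Thra1PV/+ library and 0.0342% to 0.119% of a WT library.

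**Figure D3:**
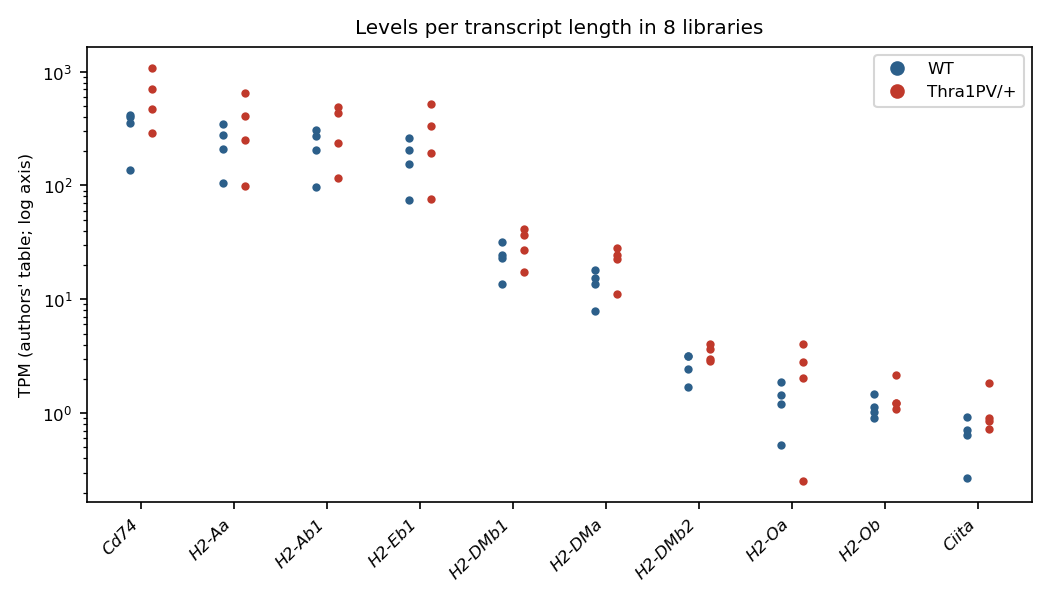
TPM values of the authors' table (y axis, log scale) are plotted for each gene (x axis, by falling median), with 1 point per library, blue for WT and red for Thra1PV/+. The points form 3 tiers, with H2-Eb1 above H2-DMb1 and H2-DMa above H2-DMb2 in each of the 8 libraries.

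The libraries ranked nearly alike for most of the genes. Averaged over H2-Aa, H2-Ab1, H2-Eb1 and Cd74, and centred per gene, log2 CPM was 1.14, -1.02, 0.18 and 0.74 in Thra1PV/+ libraries 1 to 4 and 0.32, 0.01, -1.25 and -0.12 in WT libraries 1 to 4. The spread within a genotype was thus wider than the difference between them. Over the 8 libraries, Pearson's r with this profile was 0.958 for H2-Oa, 0.944 for H2-DMa and H2-DMb1, 0.873 for H2-DMb2, 0.793 for Ciita and 0.641 for H2-Ob. Among 13365 genes whose log2 CPM averaged 1 or more, H2-DMb1 and H2-DMa ranked 13 and 14. The 8 genes most like the profile were Zfp623, Akna, H2-M3, Col8a2, Mfng, Spn, Susd3 and Dkk3, with r from 0.958 to 0.98. After removing the genotype means, the 8 were R3hcc1, Kcnn1, Nkain1, Tpmt, Apbb2, Zfp623, Akna and H2-M3, with r from 0.974 to 0.989, so 3 genes were on both lists. With 8 points that share library, depth and tissue cut, these values are a description, and many genes of so large a table reach such an r.

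Several leukocyte genes moved with the class II profile, and so did a stroma gene, while the epithelium genes Epcam and Krt5 did not. The leukocyte values stand here because dendritic cells, macrophages and B cells carry class II. Ptprc, the pan-leukocyte antigen CD45, had r = 0.947 with the profile. The macrophage markers Csf1r, the colony-stimulating factor receptor, and Adgre1 had 0.91 and 0.757. The T cell receptor components Cd3g and Cd3e had 0.934 and 0.867, and the B cell marker Cd79a 0.707. Of the dendritic cell markers, Irf8 had 0.88, Flt3 0.813 and the integrin Itgax 0.655. The progesterone receptor gene Pgr, a stroma marker named after its value was seen, had r = 0.619. Once genotype means were removed, Pgr (0.728) lay above Itgax (0.594) and below Irf8 (0.937) and Flt3 (0.792). The simple epithelium marker Epcam had r = -0.498, and -0.587 once genotype means were removed. For the squamous epithelium marker Krt5 these values were 0.143 and -0.533. Summed pan-leukocyte markers did not keep the order of the profile, with 271 CPM in WT library 3 and 235 CPM in WT library 1, and Laptm5 of that list was highest in WT library 3 at 207 CPM. Ptprc stood at 52.9, 23.5, 37.4 and 38.1 CPM in Thra1PV/+ libraries 1 to 4 and at 31.9, 31.6, 18.8 and 25.5 CPM in WT libraries 1 to 4, with Thra1PV/+ library 2 and WT library 3 lowest in their genotypes as for the chains. Its log2 fold change was 0.50 (SE 0.27, edgeR adjusted p = 0.611), close in size to that of the chains. Relative to Ptprc, the summed TPM of the chains and Cd74 was 186, 91.6, 121 and 193 in Thra1PV/+ libraries and 180, 145, 79.1 and 134 in WT libraries, with means of 148 ± 49.7 and 135 ± 41.8 (SD, n = 4 each). The genotypes overlapped throughout on that scale, which has the limit on TPM ratios given for Cd74.

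The whole marker lists gave the following. Of 5 pan-leukocyte markers, 4 were higher in mean, 0 were called, and Cd53 had the lowest p-value (log2 fold change 0.87, SE 0.31, adjusted p = 0.398). Dendritic cell markers summed to 40.4 to 97.2 CPM in Thra1PV/+ and 35.25 to 77.05 CPM in WT libraries, 5 of 11 tested were higher in mean with a median log2 fold change of -0.17, and the lowest p-values were those of Itgax (log2 fold change 0.54, SE 0.32, adjusted p = 0.651), Clec10a (-0.47, SE 0.33, adjusted p = 0.703) and Zbtb46 (-0.68, SE 0.50, adjusted p = 0.726). Macrophage and monocyte markers summed to 393 to 1530 CPM and 599 to 962 CPM, and 11 of 13 were higher in mean, with 0 called. B cell markers summed to no more than 14.4 CPM in any library, and 3 of 5 tested were higher in mean with a median log2 fold change of 0.50. Cd79a, a component of the B cell receptor, was at 0.426 to 2.90 CPM in Thra1PV/+ and 0.0199 to 0.3435 CPM in WT libraries, with no overlap (log2 fold change 2.58, SE 0.81, edgeR adjusted p = 0.341, DESeq2 adjusted p = 0.0261), while the defining genes Pax5 and Cr2 were at 0 to 0.191 CPM.

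Most T cell and neutrophil markers had higher mean levels too. Of 9 T cell markers, 7 were higher in mean in Thra1PV/+ libraries, with a median log2 fold change of 1.203. By edgeR, 5 of the 9 had an unadjusted p-value under 0.05, beside 9.77% of all tested genes. Cd4, the coreceptor that reads class II, stood at 4.63, 0.913, 2.84 and 4.59 CPM in Thra1PV/+ libraries 1 to 4 and at 1.47, 0.415, 0.517 and 1.28 CPM in WT libraries 1 to 4 (log2 fold change 1.82, SE 0.62, edgeR adjusted p = 0.381, DESeq2 adjusted p = 0.0699). Cd5, a T cell surface receptor, was at 0.893 to 1.86 CPM in Thra1PV/+ and 0.379 to 0.687 CPM in WT libraries, with no overlap (log2 fold change 1.203, SE 0.37, edgeR adjusted p = 0.327, DESeq2 adjusted p = 0.0338). Such a lack of overlap, for Cd5 as for Cd79a, was found for 6.04% of all tested genes. Summed neutrophil markers ran the other way in Thra1PV/+ library 2, at 722 CPM against 74.65 to 295 CPM in the other mutant libraries and 7.93 to 127 CPM in WT libraries. Neutrophils carry little class II. S100a9 and S100a8 made up most of that sum, at 412 and 188 CPM, and Csf3r and Cxcr2 were also highest there, at 69.4 and 49.3 CPM. Of 6 neutrophil markers, 5 were higher in mean in Thra1PV/+ libraries. The exception was Ly6g (log2 fold change -0.24, SE 0.78, edgeR adjusted p = 0.957), at 0.832 CPM in Thra1PV/+ library 2 and highest in WT library 3 at 2.13 CPM. The leukocyte lists held 5 pan-leukocyte, 11 dendritic cell, 13 macrophage and monocyte, 5 B cell, 9 T cell and 6 neutrophil genes that were tested. EdgeR called none of them. DESeq2 called 5, all higher in Thra1PV/+ libraries: Cd79a, Cd4, Cd5, S100a9 and Csf3r, with adjusted p from 0.0261 to 0.0777. Its share of calls was 3.64% over all genes it gave an adjusted p-value for. The part of these cells in the class II levels, and that of the squamous epithelium markers, was not tested.

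**Figure D4:**
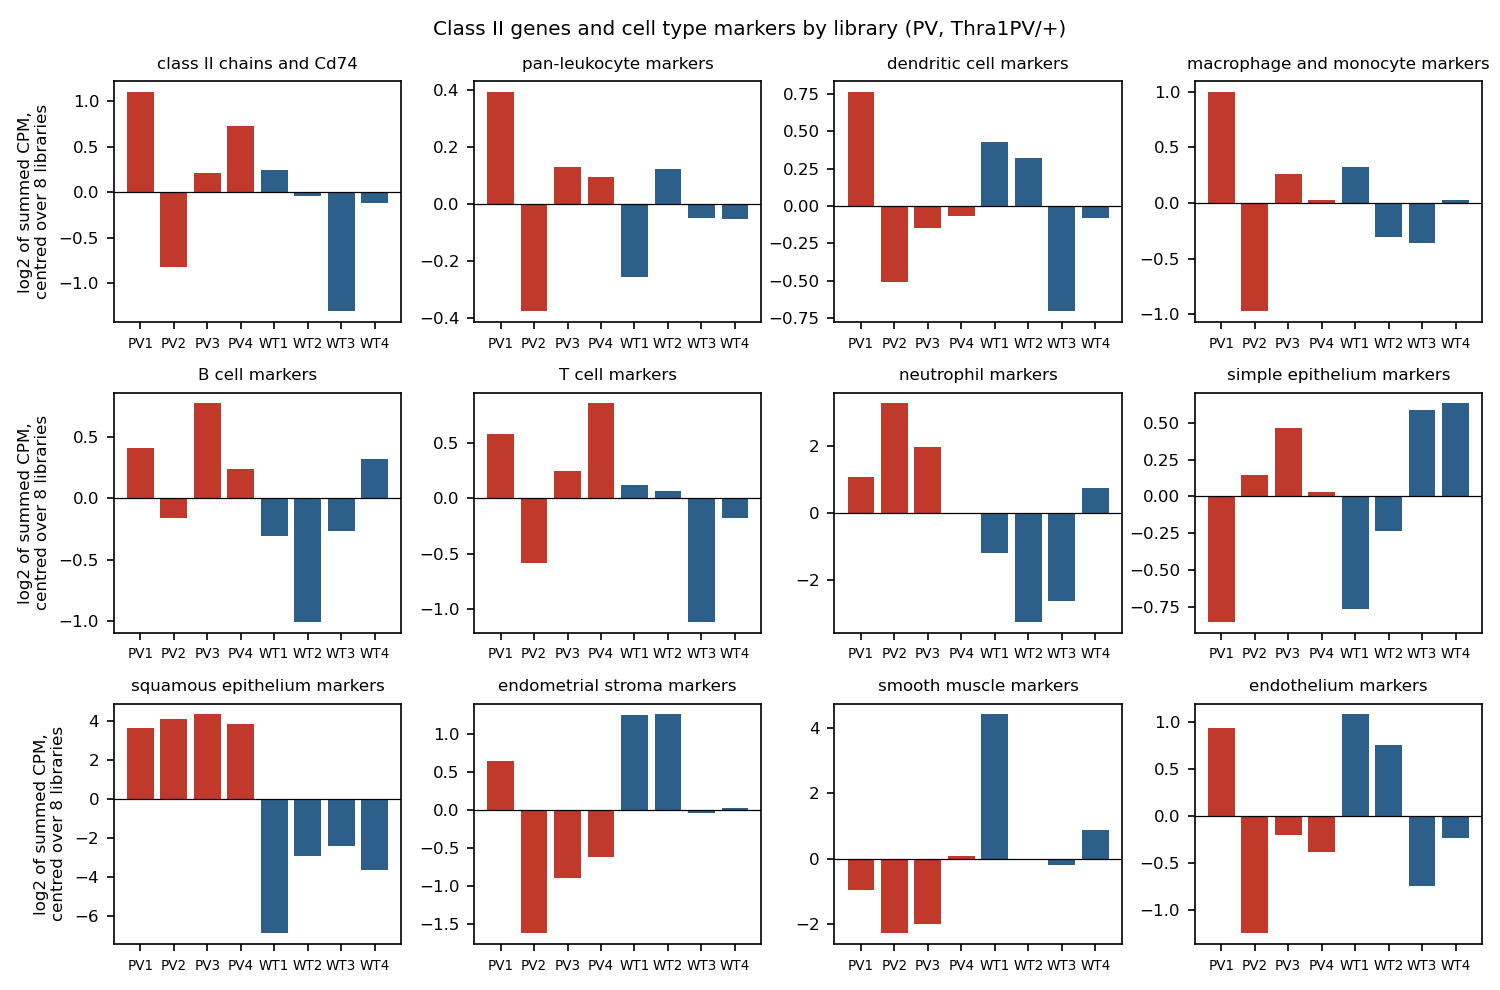
Bars give, for each library (x axis; red, Thra1PV/+, written PV; blue, WT), the log2 of summed CPM centred over the 8 libraries (y axis, with its own scale in each panel) for the class II chains with Cd74 and for 11 marker lists. Class II, T cell, dendritic cell, macrophage and endothelium panels are lowest in Thra1PV/+ library 2 and WT library 3, the stroma panel is lowest within each genotype in the same libraries, and the squamous epithelium panel splits by genotype.

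Upstream of Ciita, the route from interferon gamma showed no called gene. Ifng itself was at 0.0406 to 0.35 CPM in Thra1PV/+ and 0.0199 to 0.253 CPM in WT libraries. Of the 8 genes of the route, 6 were higher in mean and the median log2 fold change was 0.14. Jak2, a kinase of the interferon gamma receptor, had the lowest p-value and lay lower in the mutant, at 148, 122, 111.5 and 130.1 CPM against 130.2, 335, 288 and 167.5 CPM (log2 fold change -0.85, SE 0.30, edgeR adjusted p = 0.391). Irf1, which acts on a Ciita promoter, had a log2 fold change of 0.23 (SE 0.26, adjusted p = 0.841), and Socs1, which restrains the route, 0.39 (SE 0.30, adjusted p = 0.746).

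The factors that bind the X and Y boxes had small differences. Rfx5, the DNA-binding subunit of RFX, stood at 22.3 to 26.6 CPM in Thra1PV/+ and 19.98 to 28.55 CPM in WT libraries (log2 fold change 0.11, SE 0.15, adjusted p = 0.876). The summed level of the 7 promoter factor genes ran only from 266 to 301 CPM over the 8 libraries, while that of the 3 chains ran from 222 to 1153 CPM. The lowest p-values were those of the NF-Y subunits Nfyc (log2 fold change -0.30, SE 0.16, adjusted p = 0.614) and Nfya (0.23, SE 0.13, adjusted p = 0.616).

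Of the endosomal processing genes, 5 of 10 were higher in mean, 0 were called and the median log2 fold change was -0.03. Ctss, the cathepsin that trims the invariant chain, stood at 309, 103, 206 and 165 CPM in Thra1PV/+ libraries 1 to 4 and at 88.7, 70.5, 114 and 123.5 CPM in WT libraries 1 to 4. The levels of 3 mutant libraries exceeded every WT library, and library 2 lay within the WT range. Its log2 fold change was 0.98 (SE 0.33, edgeR unadjusted p = 0.0173, adjusted p = 0.367). Ctsb and Ctsd, more general lysosomal cathepsins, had log2 fold changes of -0.36 (SE 0.24, adjusted p = 0.684) and -0.64 (SE 0.46, adjusted p = 0.714).

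Of 7 genes for surface turnover and costimulation, 5 were higher in mean and 0 were called by edgeR. Cd80, a ligand that costimulates T cells, stood at 1.67, 2.64, 1.12 and 0.77 CPM in Thra1PV/+ libraries and at 0.706, 0.542, 0.378 and 0.774 CPM in WT libraries. Its highest value was in Thra1PV/+ library 2, where the chains were low. By edgeR its log2 fold change was 1.37 (SE 0.46, edgeR adjusted p = 0.367), and DESeq2 called it (log2 fold change 1.40, adjusted p = 0.0787), the 1 pathway gene for which the tools differed. March8, a ubiquitin ligase that removes class II from the surface, had a log2 fold change of -0.30 (SE 0.14, adjusted p = 0.559). Together, 0 of the 33 tested genes of these pathway lists were called, 20 were higher in mean and the median log2 fold change was 0.09.

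The 8 class II members on chromosome 17 share their stretch with class I and unrelated genes. In the stretch with 100 kb on either side, the members had a median log2 fold change of 0.54 (0.38 to 0.98), and the 15 other tested genes had a median of 0.09 (-0.65 to 0.33), of which 10 were positive. Psmb9 and Tap1, class I processing genes that lie between H2-DMb1 and H2-Ob, stood at 0.12 (SE 0.16) and 0.23 (SE 0.21). The difference between members and neighbours was not tested.

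**Figure D5:**
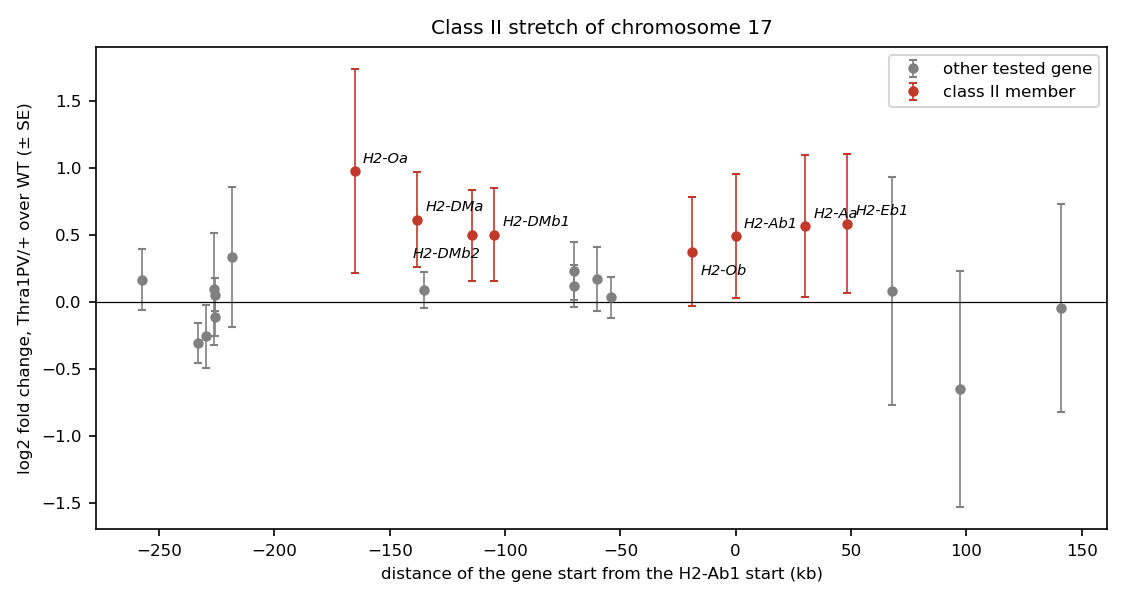
The log2 fold change (y axis, ± SE) is plotted for each tested gene of the stretch against the distance of its start from that of H2-Ab1 (x axis, kb), red for the 8 members and grey for the 15 others. The members lie between 0.38 and 0.98 and the other genes between -0.65 and 0.33.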

How the data were processed

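Endometrium was cut by laser from frozen uterine sections of 4 WT and 4 Thra1PV/+ mice. After trimming with Trimmomatic, the authors ran salmon against mm10 (version and annotation release not given in the sources used here) and deposited expected counts per gene without normalization. The deposited TPM values are nearly equal at each rank across libraries (at most 0.291 TPM apart), the form that quantile normalization gives, and 1 column of that table, which belongs to no sample used here, was left out. Expected counts were rounded and tested with edgeR 4.0.16 (R 4.3.3): filterByExpr (minimum count 10, total 15), TMM, quasi-likelihood, genotype as the only term, Benjamini-Hochberg over 18174 genes, called at fold 2 and adjusted p of 0.1. The thresholds are those of the study's methods. DESeq2 1.42.0, which the authors used, and limma 3.58.1 served as alternatives. Log2 CPM used a prior count of 2. The test recovered known changes on data simulated from the means and spread that the same fit had estimated. Those changes were 2-fold or larger, so the power for smaller ones was not tested.

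The members and gene lists were chosen with earlier results of these data known. Named genes are the 10 members, Thra, up to 4 called genes of each list or else up to 3 with the lowest p-values, and the 8 genes most like the class II profile. Genes named for an annotation or role beside these were added after the values were seen. They are H2-Ea-ps, Rfx5, Ifng, Brd2, Pgr, Epcam, the B cell markers at or near 0 and some further leukocyte markers, such as Irf8, Flt3 and Ly6g. Some genes that this rule would name are not reported here. Positions are from GENCODE M21, where all 10 members have a newer identifier version than in the files. Intervals at 95% are for the mean difference between genotypes and not for the range of single mice. Their width depends on the spread between these 4 mice per genotype as well as on counts. H2-Aa, with 3398 to 23069 counts per library, had an SE of 0.53, and H2-DMb2, with 69 to 248, had 0.34. Nothing in the labels names a batch.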

Additional observations from a re-analysis of the deposited data

Results flagged for a closer look

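Of 20 groups of 4 libraries tested (10 genes in 2 genotypes), Dixon's test at 95% picked out 2, where chance gives about 1. Both were WT library 3. Cd74 was at 7.305 log2 CPM there, with the other WT libraries between 8.61 and 8.76. Ciita was at 0.128 log2 CPM there, with the other WT libraries between 1.63 and 1.93. Without WT library 3 the log2 fold change was 0.58 for Cd74 and 0.67 for Ciita. That library was the lowest WT library for 9 of the 10 genes, and it also held the lowest summed T cell markers of the 8 (10.2 CPM) and the lowest dendritic cell markers (35.25 CPM). Their part in the class II levels was not tested.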

How the results depend on the processing

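None of the 18 refits, nor a threshold of an adjusted p of 0.05 with no fold limit, called any of the 10 members, with the lowest adjusted p at 0.42 (DESeq2). All 180 refitted log2 fold changes of members kept their sign, from 0.02 (H2-Ob without Thra1PV/+ library 1) to 1.35 (H2-Oa without Thra1PV/+ library 2). Without Thra1PV/+ library 2, 3 members had an unadjusted p under 0.05 (Cd74, H2-DMa and H2-Oa), with the lowest adjusted p at 0.537. Leaving out 1 library gave 0 called members and 0 called pathway genes each time. The pathway lists went from 0 calls to 1 (Cd80) under DESeq2, and the cause was not tested. Over the ways of scaling the counts, the median log2 fold change of all genes lay between -0.05 with TMM and 0.03 with library size only. That of the members lay between 0.58 and 0.66. These scalings differed little from each other, and the part of scaling in the members' direction was not tested. On log2 TPM with a pseudocount of 1 the members' median was 0.41. The labels number the replicates 1 to 4 in both genotypes and do not say whether the numbers pair the mice. Deviations of same-numbered libraries correlated at 0.269, -0.436, 0.34 and -0.159. These 4 values show no steady pairing and cannot exclude one. With the replicate block, 0 members and 0 pathway genes were called, and calls over all genes went from 180 to 82. They were also 81 with at least 10 counts in every library, 81 to 167 with 1 library left out, 311 with limma voom and 793 with DESeq2. With 4 mice a genotype, a fold change of 2 lay inside the 95% interval of all 10 genes, and O genes and Ciita rest on 11 to 563 counts per library.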

Other observations

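The class I presentation genes, which serve nearly all cells, were compared as a neighbouring route. Of 10 genes, 8 were higher in mean in Thra1PV/+ libraries, 0 were called, and the median log2 fold change was 0.14 (-0.02 to 0.28). Their summed level ran from 3057 to 5158 CPM over the 8 libraries, and unlike class II it was not low in WT library 3 (4941 CPM). H2-D1 stood at 1129, 1122, 1347 and 1385 CPM in Thra1PV/+ libraries 1 to 4 and at 884, 751.5, 1327 and 1321 CPM in WT libraries 1 to 4, with overlapping genotypes (log2 fold change 0.22, SE 0.22, edgeR adjusted p = 0.821). Tap1, a peptide transporter subunit, and Psmb9, an immunoproteasome subunit, had log2 fold changes of 0.23 (SE 0.21, adjusted p = 0.789) and 0.12 (SE 0.16, adjusted p = 0.866).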
